A study of Homo sapiens with 20 samples.

Results

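The 9 genes described here encode transcription factors of the neural ectoderm: POU3F1, POU3F2, OTX2, ZIC2, ZIC5, SOX3, PAX6, SIX3 and EMX1. They were listed by symbol, with earlier results of these data known, and all 9 were found among the 31155 gene identifiers of the 5 deposited tables, of which 22687 stood in all 5. All cells derived from H1, a widely used human embryonic stem cell (hESC) line, and were sequenced in 20 libraries that form 10 groups of 2. Unmodified H1 cells driven towards surface epithelium (SE) for 3 days, the initiating stage, were set against unmodified, undifferentiated hESC. H1 cells with a short hairpin RNA against FOXO4 (shFOXO4), a forkhead transcription factor, were set against scramble hairpin cells at day 3 and at day 7 of the same differentiation. H1 cells with a hairpin against SP6 (shSP6), a zinc finger transcription factor of the SP family, were likewise set against scramble hairpin cells at day 3 and day 7, and each of these 4 comparisons had its own pair of scramble libraries. The labels give no number of hairpins or clones and do not say whether the libraries of a group came from separate cultures, so every p-value below measures only the spread between these libraries, which may be technical. The questions asked of these genes were how they change during the first days of SE differentiation, and whether the knockdown cells carry them above the level of hESC or at the level of hESC.

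Ectoderm divides into a neural part, which forms when BMP signalling is held down, and a surface part, which forms where BMP signalling acts. Some neural regulators are already active in pluripotent cells before neural fate is set, among them POU3F1 (also called OCT6), OTX2, the zinc finger genes ZIC2 and ZIC5, and SOX3, a relative of SOX2. Others mark neural tissue itself or its regions: POU3F2 (BRN2) acts in neural progenitors and neurons, PAX6 in the neural plate and the eye, SIX3 in the anterior forebrain and eye, and EMX1 in the dorsal telencephalon.

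The sequences just before the start sites of 4 members are shown because these 4 were the members called higher on both days of shFOXO4 below. Each line holds the 250 bases before the start in RefSeq, on build GRCh38.p14, 5′ to 3′ on the gene's own strand, at chr1:38046794-38047043 (minus strand) for POU3F1, chr6:98834324-98834573 (plus strand) for POU3F2, chr13:99981534-99981783 (plus strand) for ZIC2 and chr13:99971910-99972159 (minus strand) for ZIC5, for which the first of 3 listed promoters was taken. ZIC2 and ZIC5 are neighbours on chromosome 13 that are transcribed away from each other. Capitals mark a GC box (GGGCGG, or CCGCCC on the other strand), the core of sites that SP factors bind, and overlapping matches run together.
POU3F1: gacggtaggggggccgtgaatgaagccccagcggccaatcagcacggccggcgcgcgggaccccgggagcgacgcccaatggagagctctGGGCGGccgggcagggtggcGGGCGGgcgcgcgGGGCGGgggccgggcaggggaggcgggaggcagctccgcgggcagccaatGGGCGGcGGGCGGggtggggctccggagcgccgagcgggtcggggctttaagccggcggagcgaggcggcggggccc
POU3F2: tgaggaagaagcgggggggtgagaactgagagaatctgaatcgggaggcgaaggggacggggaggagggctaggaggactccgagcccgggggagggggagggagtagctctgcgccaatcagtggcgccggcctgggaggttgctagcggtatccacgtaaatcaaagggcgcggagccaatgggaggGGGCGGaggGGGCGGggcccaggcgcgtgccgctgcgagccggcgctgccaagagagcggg
ZIC2: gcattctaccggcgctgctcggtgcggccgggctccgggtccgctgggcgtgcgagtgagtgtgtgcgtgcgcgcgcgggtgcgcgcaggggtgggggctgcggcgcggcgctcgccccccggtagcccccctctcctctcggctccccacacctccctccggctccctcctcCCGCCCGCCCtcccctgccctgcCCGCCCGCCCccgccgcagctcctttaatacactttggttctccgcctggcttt
ZIC5: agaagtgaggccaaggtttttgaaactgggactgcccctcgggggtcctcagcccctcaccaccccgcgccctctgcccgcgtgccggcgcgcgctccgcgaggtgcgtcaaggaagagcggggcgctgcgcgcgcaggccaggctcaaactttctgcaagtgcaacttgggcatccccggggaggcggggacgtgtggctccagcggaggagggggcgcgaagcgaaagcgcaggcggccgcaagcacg
The POU3F1 stretch held 5 GC boxes, that of ZIC2 held 4, that of POU3F2 held 2 and that of ZIC5 held 0. Between 69.2% (POU3F2) and 80.8% (POU3F1) of their bases were G or C. Of the 18 promoters listed for 7 of the 9 members, 10 held a GC box, against 42.6% of all 35116 promoters of that table. PAX6 alone had 9 of these promoters, 6 of them with a GC box, while the 2 of OTX2 and the 3 of ZIC5 held 0. The forkhead core GTAAACA, searched on both strands, was in 0 of the 18 and in 2.98% of all promoters. The octamer ATGCAAAT, a site of POU factors searched on both strands, was in 0 of the 18 and in 1.63% of all promoters. A match is a description of these letters and not a site of binding. SIX3 and EMX1 are named only.

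The series as a whole was checked first. Recovered reads per library ran from 14937104 to 30328846. All 18 surface ectoderm genes of a marker list were higher in SE day 3 cells than in hESC. Of 18 pluripotency genes 10 were lower and 6 were higher. FOXO4 was left at 16.4% of scramble cells at day 3 and 3.21% at day 7 under its own hairpin, and SP6 at 14.1% and 2.51% under its hairpin. SP6 was also at 34.2% and 9.68% in shFOXO4 cells, and FOXO4 at 95.4% and 17.6% in shSP6 cells. In every knockdown comparison the summed level of the 18 pluripotency genes was higher and that of the 18 surface ectoderm genes lower than in both scramble libraries. Levels below are deposited normalized counts of each library, scaled within a table of 4 libraries, and changes are log2 fold changes on the log2(value + 1) scale ± SE, tested with limma across every gene of the table whose mean was at least 10, with p-values adjusted by Benjamini-Hochberg and called under 0.05. A gene whose mean is under 10 in 1 of the 2 groups reaches that mean only through its higher group, and among the members these were SIX3 and EMX1 in SE day 3 over hESC, POU3F2 and PAX6 in shFOXO4 day 7, EMX1 in shSP6 day 3, and POU3F2, PAX6, SIX3 and EMX1 in shSP6 day 7. RNA was measured in bulk, so fewer cells that express a gene and less of its RNA per cell cannot be told apart.

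**Figure D1:**
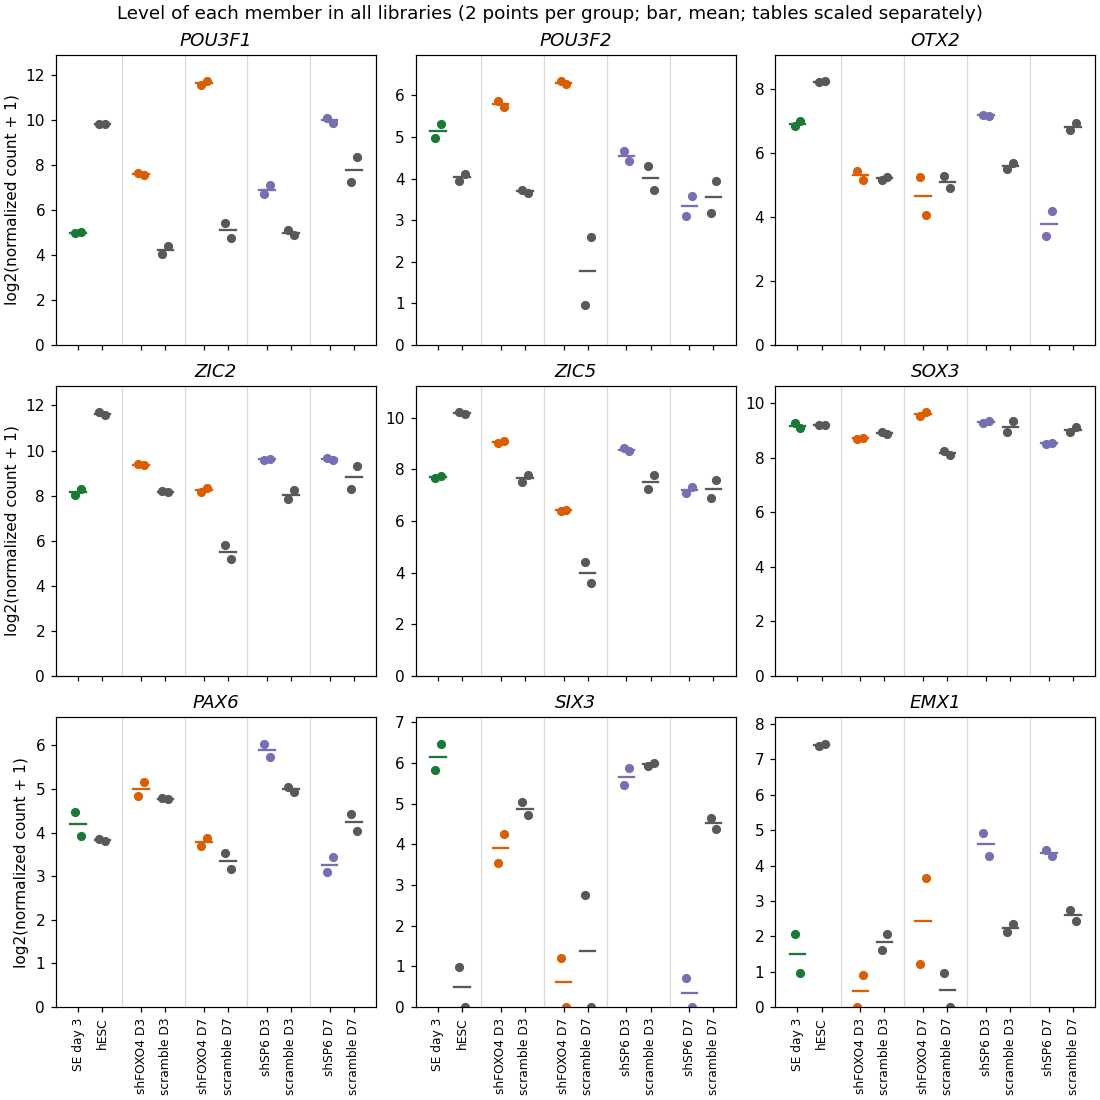
Deposited level of the 9 genes in all 20 libraries, as log2(normalized count + 1) on the vertical axis, with 1 point per library and a bar at the group mean. Grey lines separate the 5 tables, which were scaled separately. POU3F1 stands highest in shFOXO4 day 7 cells, ZIC2, ZIC5, OTX2 and EMX1 stand highest in hESC, and SIX3 stands highest in SE day 3 cells.

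In SE day 3 cells most of these genes were lower than in hESC. At day 3, 5 of the 9 were called lower, against 37.0% of the 16217 genes tested, and 2 were called higher, against 35.2%. The median log2 change of the 9 was -1.31, beside -0.02 over all genes tested. Without SIX3 and EMX1, 4 of 7 were lower and 1 was higher.

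Of the genes already active in pluripotent cells, POU3F1, which promotes neural fate in the mouse epiblast, fell furthest. It measured 30.5 and 31.2 in SE day 3 cells, against 916 and 917 in hESC, a change of -4.85 ± 0.12 (adjusted p = 1.91e-12) that left 3.37% of the hESC level. ZIC2, whose loss in human causes holoprosencephaly, measured 256 and 311 in SE day 3 cells, against 3019 and 3301 in hESC, a change of -3.48 ± 0.09 (adjusted p = 1.36e-12). Its neighbour ZIC5 measured 203 and 212 in SE day 3 cells, against 1138 and 1184 in hESC (change -2.48 ± 0.08, adjusted p = 1.42e-11). The libraries of the 2 groups lay far apart for all 3 genes. OTX2, a homeobox gene of forebrain and midbrain, measured 113 and 127 in SE day 3 cells, against 297 and 299.9 in hESC, a smaller change of -1.31 ± 0.12 (adjusted p = 5.57e-07). SOX3 was the exception among the early genes, with 548 and 614 in SE day 3 cells, against 596 and 597 in hESC. Its groups overlapped, and the interval of its change (95%) ran from -0.21 to 0.13 (change -0.04 ± 0.08, adjusted p = 0.664).

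The later regional genes went in different directions. EMX1 measured 0.945 and 3.16 in SE day 3 cells, against 166 and 173 in hESC, a change of -5.91 ± 0.38 (adjusted p = 1.63e-08). This gene of the dorsal telencephalon was thus measured in undifferentiated hESC and stood close to 0 at day 3. SIX3 did the opposite, with 55.8 and 87.8 in SE day 3 cells, against 0 and 0.964 in hESC. The hESC libraries held 1 SIX3 read together and the SE day 3 libraries 146, a ratio of 143 with a 95% counting interval of 25.2 to 5669, and the fitted change was 5.66 ± 0.50 (adjusted p = 3.23e-07). POU3F2 measured 30.5 and 38.7 in SE day 3 cells, against 14.5 and 16.2 in hESC, and rose by 1.12 ± 0.31 (adjusted p = 0.00562). PAX6 measured 14.2 and 21.1 in SE day 3 cells, against 13.0 and 13.5 in hESC. Its libraries did not overlap, but its change of 0.36 ± 0.37 missed the threshold (adjusted p = 0.4, interval -0.45 to 1.17).

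The annotation GENCODE v29 places PAX6 over the opposite-strand genes ELP4, PAUPAR and AL035078.4, and EMX1 over AC012366.1. The kit keeps the strand, but whether the counting used it is not stated in the sources used here, so reads of these genes and of their partners cannot be told apart.

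**Figure D2:**
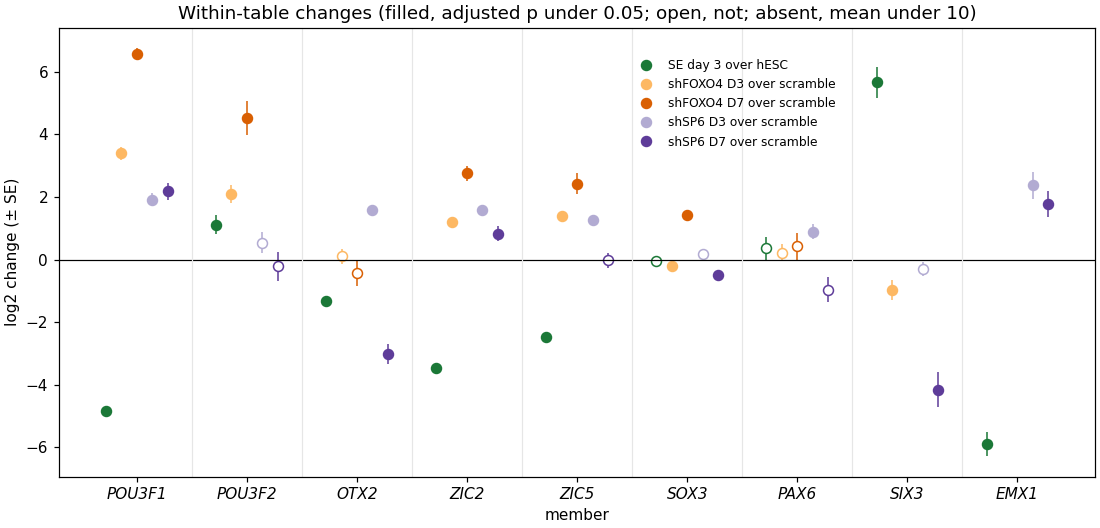
Log2 change of each gene within each table on the vertical axis, with bars of 1 SE and 1 colour per comparison. Filled points passed an adjusted p of 0.05 and open points did not, and genes with a mean under 10 in a table have no point. POU3F1, ZIC2 and ZIC5 lie far below 0 in SE day 3 over hESC and above 0 in both comparisons of shFOXO4 over scramble cells.

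Knockdown of FOXO4 left POU3F1, POU3F2, ZIC2 and ZIC5 higher than in scramble cells at day 3. These 4 were called higher among the 8 members tested, where 31.8% of 15697 genes were, and 2 were called lower, where 30.8% of genes were. The median change of the 8 was 0.71, beside 0.01 over all genes tested. Both POU3 genes moved most. POU3F1 measured 188 and 199 in shFOXO4 cells, against 15.4 and 19.9 in scramble cells, a change of 3.39 ± 0.20 (adjusted p = 4.56e-19). POU3F2 measured 51.8 and 57.4 in shFOXO4 cells, against 11.5 and 12.3 in scramble cells (change 2.11 ± 0.29, adjusted p = 2.22e-08). In SE day 3 over hESC these 2 paralogs had gone opposite ways, and here both stood above scramble cells.

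ZIC2 measured 655 and 669 in shFOXO4 day 3 cells, against 282 and 294 in scramble cells (change 1.2 ± 0.08, adjusted p = 2.6e-17). ZIC5 measured 517 and 545 in shFOXO4 day 3 cells, against 184 and 217 in scramble cells (change 1.40 ± 0.09, adjusted p = 2.91e-17). For both ZIC genes the 2 groups were separated by more than the spread within either. SIX3 was lower, with 10.6 and 18.1 in shFOXO4 cells, against 25.2 and 31.7 in scramble cells (change -0.97 ± 0.33, adjusted p = 0.0105). SOX3 was slightly lower, with 414 and 425 in shFOXO4 cells, against 467 and 498 in scramble cells (change -0.20 ± 0.08, adjusted p = 0.0248). Neither of these 2 lower calls was held without scramble replicate 1 (adjusted p = 0.105 for SIX3 and 0.193 for SOX3) or without shFOXO4 replicate 1 (adjusted p = 0.155 and 0.087). OTX2 measured 34.5 and 42.5 in shFOXO4 cells, against 34.8 and 36.7 in scramble cells, with overlapping groups (change 0.10 ± 0.24, adjusted p = 0.746). PAX6 measured 27.6 and 34.5 in shFOXO4 cells, against 26.2 and 26.6 in scramble cells (change 0.22 ± 0.27, adjusted p = 0.505). EMX1 was under the mean of 10, with 1 read over both shFOXO4 libraries and 5 over both scramble libraries, a ratio of 0.184 with a counting interval of 0.00389 to 1.64.

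By day 7 the same 4 genes and SOX3 were higher in shFOXO4 cells. Of 7 members tested 5 were called higher, where 37.1% of 16374 genes were, and 0 were called lower, where 35.4% of genes were. For that count of 0 lower, edgeR on recovered reads also called 0. No member was lower at an unadjusted p of 0.05, and OTX2 alone had a change below 0 (limma adjusted p = 0.379). The median change of the 7 was 2.42, beside 0.02 over all genes tested. POU3F1 measured 3049 and 3404 in shFOXO4 cells, against 26.0 and 42 in scramble cells, a change of 6.56 ± 0.20 (adjusted p = 1.03e-08). In deposited level its shFOXO4 libraries stood above every other library of the series. POU3F2 measured 76.3 and 80.1 in shFOXO4 cells, against 0.955 and 5.0 in scramble cells (change 4.53 ± 0.54, adjusted p = 5.57e-05). The 2 scramble libraries held 6 POU3F2 reads together, so the size of that change rests on few reads: 134 reads in shFOXO4 cells gave a ratio of 26.6 with a counting interval of 11.9 to 73.8. Without POU3F2 and PAX6, 4 of 5 members were higher.

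ZIC2 measured 288 and 321 in shFOXO4 day 7 cells, against 35.0 and 55.4 in scramble cells (change 2.76 ± 0.23, adjusted p = 6.02e-06). ZIC5 measured 82.8 and 85.7 in shFOXO4 day 7 cells, against 11 and 20.1 in scramble cells (change 2.42 ± 0.34, adjusted p = 0.000164). Across the separately scaled tables both ZIC genes stood lower in either day 7 group than in its day 3 counterpart. Their larger log2 change at day 7 thus went with lower levels in shFOXO4 cells and still lower levels in scramble cells. SOX3 measured 742 and 813 in shFOXO4 cells, against 272 and 307 in scramble cells (change 1.42 ± 0.10, adjusted p = 2.31e-06). OTX2 and PAX6 did not pass the test. OTX2 measured 15.7 and 36.8 in shFOXO4 cells, against 29 and 37.3 in scramble cells (change -0.43 ± 0.42), and PAX6 measured 11.8 and 13.6 in shFOXO4 cells, against 8.0 and 10.5 in scramble cells (change 0.43 ± 0.43, adjusted p = 0.396). SIX3 and EMX1 were under the mean of 10. SIX3 held 1 read over the shFOXO4 libraries and 6 over the scramble libraries, a ratio of 0.199 with a counting interval of 0.00432 to 1.64. EMX1 held 12 reads over the shFOXO4 libraries and 1 over the scramble libraries, a ratio of 14.3 with a counting interval of 2.12 to 611, and its 2 shFOXO4 libraries were unequal at 1.31 and 11.5.

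Knockdown of SP6 left POU3F1, ZIC2, ZIC5, OTX2, EMX1 and PAX6 higher than in scramble cells at day 3. These 6 of 9 members were called higher, where 28.3% of 16548 genes were, and 0 were called lower, where 27.5% of genes were. The median change of the 9 was 1.27, beside 0.00 over all genes tested, and without EMX1 5 of 8 were higher. For the count of 0 called lower, edgeR also called 0, and no member was lower at an unadjusted p of 0.05. SIX3 alone had a change below 0, with 42.8 and 57.4 in shSP6 cells, against 59.9 and 62.7 in scramble cells (change -0.30 ± 0.22, adjusted p = 0.264). POU3F1 measured 103 and 137 in shSP6 cells, against 28.3 and 33.3 in scramble cells (change 1.92 ± 0.21, adjusted p = 2.51e-05). ZIC2 measured 772 and 787 in shSP6 cells, against 227 and 299 in scramble cells (change 1.58 ± 0.12, adjusted p = 1.65e-06). ZIC5 measured 419 and 451 in shSP6 cells, against 149 and 218 in scramble cells (change 1.27 ± 0.16, adjusted p = 6.17e-05). These 3 genes were thus higher in both knockdowns at day 3.

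OTX2, which did not pass the test in shFOXO4 cells, measured 141 and 145 in shSP6 day 3 cells, against 44.4 and 50.6 in scramble cells (change 1.57 ± 0.17, adjusted p = 2.18e-05). EMX1 measured 18.4 and 29.1 in shSP6 cells, against 3.33 and 4.04 in scramble cells (change 2.37 ± 0.42, adjusted p = 0.000704). Its reads were 53 in shSP6 cells and 7 in scramble cells, a ratio of 6.63 with a counting interval of 3.0 to 17.3. PAX6 measured 52.0 and 64.7 in shSP6 cells, against 29.3 and 32.2 in scramble cells (change 0.90 ± 0.23, adjusted p = 0.007), a call that was lost without shSP6 replicate 1 (adjusted p = 0.0945). The groups of these 3 genes did not overlap. POU3F2 measured 20.6 and 24.3 in shSP6 cells, against 12.1 and 18.9 in scramble cells (change 0.53 ± 0.34, adjusted p = 0.203, interval -0.21 to 1.28). SOX3 measured 624 and 658 in shSP6 cells, against 489 and 648 in scramble cells (change 0.19 ± 0.12, adjusted p = 0.206). The scramble libraries of this table differed for SOX3, and its change was -0.02 without scramble replicate 1 and 0.39 (adjusted p = 4.82e-05) without scramble replicate 2.

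At day 7 of shSP6, POU3F1, ZIC2 and EMX1 were called higher, 3 of 9 members where 29.0% of 17535 genes were, and OTX2, SOX3 and SIX3 were called lower, 3 of 9 where 29.6% of genes were. Both shares are close to those of all genes. Without POU3F2, PAX6, SIX3 and EMX1, 2 of 5 were higher and 2 lower. The median change of the 9 was -0.21, beside -0.02 over all genes tested. POU3F1 measured 931 and 1103 in shSP6 cells, against 151 and 323 in scramble cells (change 2.19 ± 0.27, adjusted p = 8.47e-05). ZIC2 measured 768 and 823 in shSP6 cells, against 315 and 634 in scramble cells (change 0.83 ± 0.25, adjusted p = 0.0158). EMX1 measured 18.4 and 20.8 in shSP6 cells, against 4.43 and 5.69 in scramble cells (change 1.77 ± 0.42, adjusted p = 0.0045), from 48 reads in shSP6 cells and 9 in scramble cells (ratio 3.96, counting interval 1.92 to 9.17). The 2 scramble libraries of this table stood apart for POU3F1 and ZIC2, while the shSP6 libraries stood close together. ZIC2 lost its call without shSP6 replicate 1 (adjusted p = 0.111) or without shSP6 replicate 2 (adjusted p = 0.0813), and EMX1 lost it without shSP6 replicate 1 (adjusted p = 0.0513).

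OTX2 fell in shSP6 day 7 cells to 9.46 and 17.1, against 104 and 121 in scramble cells (change -3.03 ± 0.32, adjusted p = 2.78e-05). SIX3 fell to 0 and 0.63 in shSP6 cells, against 19.9 and 23.9 in scramble cells. The shSP6 libraries held 1 SIX3 read together and the scramble libraries 39, a ratio of 0.019 with a counting interval of 0.00047 to 0.112 (fitted change -4.16 ± 0.55, adjusted p = 0.000128). SOX3 measured 366 and 375 in shSP6 cells, against 493 and 556 in scramble cells (change -0.50 ± 0.11, adjusted p = 0.00365). For these 3 genes the 2 groups did not overlap. PAX6 measured 7.57 and 9.80 in shSP6 cells, against 15.5 and 20.5 in scramble cells, and missed the threshold (change -0.97 ± 0.40, adjusted p = 0.0601) that it passed with edgeR on recovered reads (change -1.07, adjusted p = 0.0414) and without scramble replicate 2 (change -1.16, adjusted p = 0.0408). ZIC5 measured 137 and 158 in shSP6 cells, against 117 and 191 in scramble cells (change -0.03 ± 0.23, interval -0.54 to 0.48). POU3F2 measured 7.57 and 11 in shSP6 cells, against 7.97 and 14.4 in scramble cells (change -0.21 ± 0.46, interval -1.24 to 0.82). The groups of both genes overlapped.

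**Figure D3:**
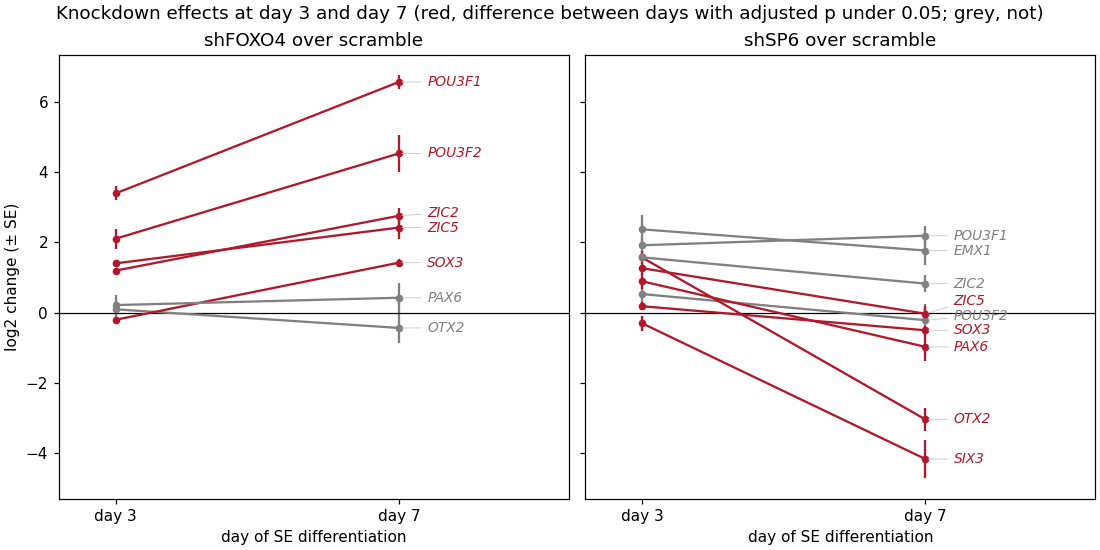
Log2 change of each gene over scramble cells (± SE) at day 3 and day 7, for shFOXO4 on the left and shSP6 on the right, with genes tested in both tables of a hairpin. Red lines mark genes whose day 7 change differed from the day 3 change at an adjusted p under 0.05. All red lines climb in shFOXO4 cells and all descend in shSP6 cells.

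The difference between the day 7 and the day 3 effect of each hairpin was tested directly. The effect of shFOXO4 differed between days for 5 of 7 members tested, where 62.7% of 14954 genes differed in either direction. All 5 had the higher effect at day 7. POU3F1 gained 3.17 ± 0.28 (adjusted p = 2.93e-07), POU3F2 gained 2.43 ± 0.63 (adjusted p = 0.00378) and SOX3 gained 1.63 ± 0.13 (adjusted p = 8.65e-08). ZIC2 and ZIC5 gained 1.56 ± 0.24 (adjusted p = 4.82e-05) and 1.02 ± 0.31 (adjusted p = 0.0107). ZIC5 lost the call without day 3 scramble replicate 2 (adjusted p = 0.0545) and under quantile normalization (0.45, adjusted p = 0.207). OTX2 and PAX6 did not pass, with -0.53 ± 0.50 and 0.21 ± 0.49, though OTX2 did without day 7 shFOXO4 replicate 1 (-1.12, adjusted p = 0.038). For shSP6, 5 of 9 members had a lower effect at day 7 than at day 3, and 35.1% of 15992 genes differed in either direction. Without the members that reached the mean of 10 through 1 group, these counts were 4 of 5 for shFOXO4 and 3 of 5 for shSP6. The largest differences among the members were those of OTX2, at -4.61 ± 0.37 (adjusted p = 4e-06), and SIX3, at -3.86 ± 0.51 (adjusted p = 0.000151), which held 1 read in shSP6 day 7 cells. PAX6 differed by -1.87 ± 0.42 (adjusted p = 0.00527), ZIC5 by -1.29 ± 0.32 (adjusted p = 0.00764) and SOX3 by -0.68 ± 0.18 (adjusted p = 0.0103). OTX2 was thus above scramble cells at day 3 and below them at day 7, on both days past the test. POU3F1 did not pass, with a difference of 0.27 ± 0.39, and it was -0.27 without scramble replicate 1 of day 7 and 0.82 (adjusted p = 0.0283) without scramble replicate 2. ZIC2, with -0.75 ± 0.34 (adjusted p = 0.107), passed without scramble replicate 1 of day 7, at -1.25 (adjusted p = 0.000267).

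The effects of the 2 hairpins were also set against each other on each day. At day 3, 4 of 8 members tested differed, where 36.8% of 15476 genes did. The shSP6 effect was lower than the shFOXO4 effect for POU3F1 (difference -1.47 ± 0.29, adjusted p = 0.000912) and POU3F2 (-1.57 ± 0.43, adjusted p = 0.00847). It was higher for OTX2 (1.47 ± 0.28, adjusted p = 0.000577) and, at the edge of the threshold, for SOX3 (0.39 ± 0.15, adjusted p = 0.0498). SOX3 lost that call in 7 of the 8 fits that left out 1 library. ZIC2 and ZIC5 did not pass, with intervals of 0.06 to 0.69 and -0.56 to 0.28. ZIC2 (0.38 ± 0.15, adjusted p = 0.056) passed with the replicate number as a block (adjusted p = 0.0377), with TMM factors (adjusted p = 0.044) and without scramble replicate 2 of shSP6 (0.57, adjusted p = 0.000348). ZIC5 passed without scramble replicate 1 of shSP6 (-0.41, adjusted p = 0.0282). At day 7, 6 of 7 members tested differed, where 49.0% of 16043 genes did, and all 6 had the lower effect in shSP6 cells. They were POU3F2 (-4.74 ± 0.77), POU3F1 (-4.37 ± 0.40), OTX2 (-2.60 ± 0.57), ZIC5 (-2.45 ± 0.42), ZIC2 (-1.93 ± 0.38) and SOX3 (-1.92 ± 0.15), with adjusted p between 1.73e-06 (SOX3) and 0.00253 (OTX2). Without POU3F2 and PAX6, which passed the mean filter through 1 group, 5 of 5 members differed, all with the lower effect in shSP6 cells. The size of the POU3F2 difference rests on few reads in the day 7 scramble cells of shFOXO4. The median difference over all genes was -0.11. The day 7 scramble groups of the 2 hairpins also differed in level, in tables that were scaled separately. POU3F1 was at 237 ± 121 beside shSP6 cells and 34.0 ± 11.3 beside shFOXO4 cells (SD, n = 2 each). In the same order these scramble groups averaged 475 and 45.2 for ZIC2, 154 and 15.5 for ZIC5, and 112 and 33.1 for OTX2. POU3F2 and SOX3 also averaged higher beside shSP6 cells. The shSP6 cells themselves averaged higher than shFOXO4 cells for ZIC2 (796 and 304) and ZIC5 (147 and 84.2). POU3F1, POU3F2, OTX2 and SOX3 averaged lower in shSP6 than in shFOXO4 cells.

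Whether the knockdown cells passed or kept the level of hESC was described and not tested directly. The hESC libraries stand in a separately scaled table, so group and table cannot be told apart in such a contrast. Across tables, scramble day 3 cells stood at 1.08 (shFOXO4 table) and 1.22 (shSP6 table) of unmodified SE day 3 cells in the median of all genes (1 added to each value), and single genes ranged widely, with 95% of them between 0.406 and 2.45 and between 0.568 and 3.40. OTX2 stood at 0.299 and 0.397 and POU3F2 at 0.344 and 0.447 of the unmodified cells in the 2 tables, so ratios across tables are loose for these genes.

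**Figure D4:**
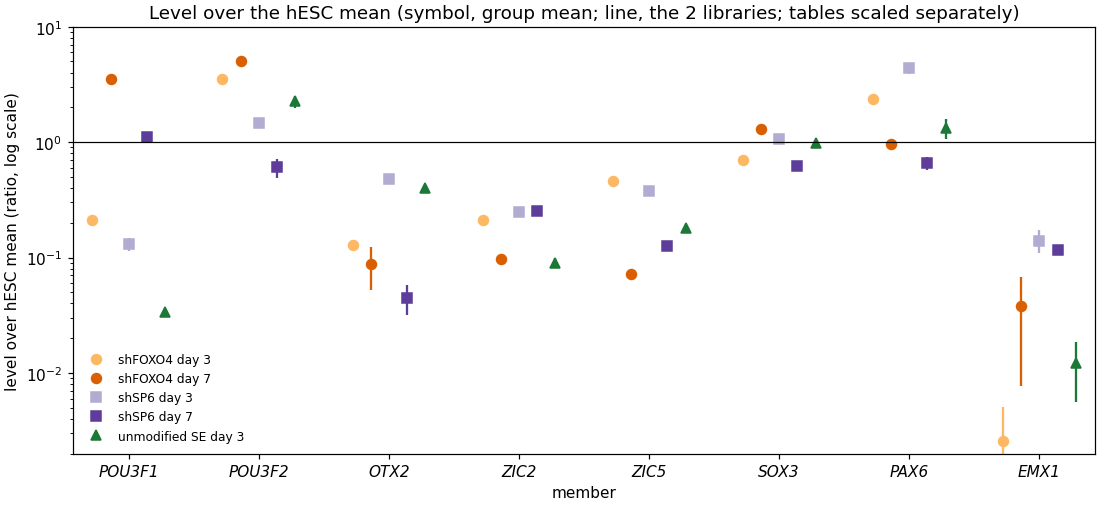
Level of 8 genes over the mean of the 2 hESC libraries, on a log axis, with a symbol at the group mean and a line between the 2 libraries of the group. SIX3 is left out because hESC held 1 of its reads, and the lower end for EMX1 in shFOXO4 day 3 cells is a library at 0. POU3F1, POU3F2 and SOX3 lie above 1 in shFOXO4 day 7 cells, while ZIC2, ZIC5, OTX2 and EMX1 lie below 1 in every group.

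The 4 genes OTX2, ZIC2, ZIC5 and EMX1 stood below both hESC libraries in all 4 knockdown groups, as did 8.33% of the 16740 genes whose mean over the 20 libraries reached 10, or 10.9% and 12% of them after scaling all libraries together by TMM and by median ratios. ZIC2 was at 0.21 of the hESC mean in shFOXO4 day 3 cells, 0.0963 in shFOXO4 day 7 cells, 0.247 in shSP6 day 3 cells and 0.252 in shSP6 day 7 cells. ZIC5 was at 0.458 and 0.0726 in shFOXO4 cells at day 3 and day 7, and at 0.375 and 0.127 in shSP6 cells. OTX2 came nearest to hESC in shSP6 day 3 cells, at 0.479, and EMX1 in the same cells, at 0.14. The levels of these genes in knockdown cells were thus between those of scramble cells and hESC wherever they were called higher.

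POU3F1 went past that range on day 7. It stood at 0.211 of the hESC mean in shFOXO4 day 3 cells and at 3.52 in shFOXO4 day 7 cells (libraries at 3.33 and 3.71). In shSP6 cells it stood at 0.131 at day 3 and at 1.11 at day 7 (libraries at 1.02 and 1.2). After rescaling all 20 libraries together, by median ratios or by TMM, the shFOXO4 day 7 libraries remained above both hESC libraries and the shSP6 day 7 libraries overlapped them. POU3F2 stood at 3.56 and 5.10 of the hESC mean in shFOXO4 cells at day 3 and day 7, above the 2.26 of unmodified SE day 3 cells, and at 1.46 and 0.605 in shSP6 cells. SOX3 stood at 0.704 and 1.3 in shFOXO4 cells and at 1.08 and 0.621 in shSP6 cells at day 3 and day 7. The shSP6 day 3 position of SOX3 above hESC was lost under both rescalings.

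PAX6 and SIX3 stood above hESC at day 3 in both knockdowns, but so did their scramble cells. PAX6 was at 2.35 of the hESC mean in shFOXO4 day 3 cells and at 4.41 in shSP6 day 3 cells, with scramble means of 26.4 and 30.7 against 13.2 in hESC. At day 7 it was at 0.959 in shFOXO4 cells, overlapping hESC, and at 0.655 in shSP6 cells. SIX3 averaged 14.4 in shFOXO4 day 3 cells and 50.1 in shSP6 day 3 cells, beside 28.5 and 61.3 in their scramble cells and 0.482 in hESC, and 1 read remained in each knockdown at day 7. Above both hESC libraries lay 3 of 9 members in shFOXO4 day 3 cells, where 46.5% of the 16740 genes did, and 3 of 9 in shFOXO4 day 7 cells, where 41.9% did, and the member counts were the same under each of the 3 scalings. In shSP6 day 3 cells 4 members did, where 57.9% of genes did, or 3 after either rescaling, where 45.0% and 47.8% of genes did. In shSP6 day 7 cells 1 member did, where 54.0% of genes did, or 0 after either rescaling, where 41.3% and 41.6% did. The share of members above hESC was below that of all genes in each of the 4 knockdown groups. Among 9 members a single gene shifts that share widely, and the difference was not tested.

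At day 3 the within-table change of the knockdown was added to that of SE day 3 over hESC, and the sum was tested. That sum equals the level over hESC only where scramble day 3 cells stand at the level of unmodified day 3 cells. For shFOXO4 the sum differed from 0 for 6 of 8 members tested and for 62.5% of 15070 genes. Without SIX3, which passed the mean filter through 1 group, the sum was called below 0 for 4 of 7 members and above 0 for 1. It was below 0 for ZIC2 (-2.28 ± 0.11), POU3F1 (-1.45 ± 0.23), OTX2 (-1.22 ± 0.24) and ZIC5 (-1.07 ± 0.13), with adjusted p of 0.000143 or less. It was above 0 for POU3F2 (3.22 ± 0.41, adjusted p = 4.32e-07) and SIX3 (4.69 ± 0.60, adjusted p = 4.28e-07). The POU3F2 sum is larger than the log2 of its direct ratio to hESC, 1.77, since its scramble cells stood below the unmodified cells. For shSP6 the sum differed from 0 for 7 of 9 members and for 56.5% of 15545 genes. Without SIX3 and EMX1, which passed the mean filter through 1 group, the sum was called below 0 for 3 of 7 members and above 0 for 2. It was below 0 for EMX1 (-3.53 ± 0.59), POU3F1 (-2.93 ± 0.24), ZIC2 (-1.90 ± 0.16) and ZIC5 (-1.21 ± 0.19), and above 0 for SIX3 (5.36 ± 0.51), POU3F2 (1.65 ± 0.46, adjusted p = 0.00671) and PAX6 (1.26 ± 0.41, adjusted p = 0.0181). PAX6 lost its call without SE day 3 replicate 1 (adjusted p = 0.0698) or without shSP6 replicate 1 (adjusted p = 0.0899). OTX2 did not pass in shSP6 cells (0.26 ± 0.20, interval -0.17 to 0.69). The log2 of its direct ratio to hESC was -1.06, with both shSP6 libraries below both hESC libraries. Its scramble cells, too, stood below the unmodified cells, at 0.397 of their level. SOX3 passed in neither sum (-0.24 ± 0.11 for shFOXO4 and 0.15 ± 0.15 for shSP6). SOX3 did pass without SE day 3 replicate 1 for shFOXO4 (-0.32, adjusted p = 0.0233) and without scramble replicate 2 for shSP6 (0.35, adjusted p = 0.0214).

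Ordered by deposited level across the separately scaled tables, the 10 groups ran differently for each gene. In 37 of 81 pairs of neighbours in these orders the libraries overlapped. POU3F1 was highest in shFOXO4 day 7 cells, followed by shSP6 day 7 cells and hESC, and lowest in the day 3 scramble cells of shFOXO4, at 17.6. Its shSP6 day 7 and hESC libraries did not overlap in deposited level, but they did after either rescaling of all libraries together. POU3F2 ran from 78.2 in shFOXO4 day 7 cells through 54.6 in shFOXO4 day 3 cells and 34.6 in SE day 3 cells, with no overlap, to 2.98 in shFOXO4 day 7 scramble cells. For ZIC2, hESC at 3159.8 stood far above shSP6 day 7 cells at 796 and shSP6 day 3 cells at 779.5, which overlapped. The lowest ZIC2 level was 45.2, in the day 7 scramble cells of shFOXO4, and that group also held the lowest ZIC5 (15.5) and SOX3 (289) levels. ZIC5 had hESC at 1161 above shFOXO4 day 3 cells at 531 and shSP6 day 3 cells at 435, with no overlap. OTX2 was lowest in shSP6 day 7 cells at 13.3, which overlapped shFOXO4 day 7 cells at 26.2. PAX6 was highest in shSP6 day 3 cells at 58.4 and lowest in shSP6 day 7 cells at 8.68, and SOX3 had the smallest ratio of highest to lowest group, with 778 in shFOXO4 day 7 cells as its highest level. SIX3 and EMX1 each had groups with 1 read in all, which no order can separate.

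Among themselves, ZIC2 and ZIC5 had the most alike patterns of the 5 within-table changes, at a Euclidean distance of 1.41 in log2 units, followed by SOX3 and PAX6 at 1.43, among the 7 members tested in all 5 tables. The paralogs POU3F1 and POU3F2 lay 7.0 apart, and POU3F1 and OTX2 were the farthest pair at 9.98. Among 14393 genes tested in every table, the nearest to ZIC5 was PLEKHG4 (distance 0.187), the nearest to ZIC2 were NOS1 (0.588) and TMEM132B (0.594), and the nearest to SOX3 was RAI2 (0.259). PAX6 had STAMBPL1 nearest (0.371). POU3F1, POU3F2 and OTX2 had no neighbour that close, with JPH4 at 1.3, ARSL at 1.64 and SEC14L6 at 1.66.

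Other genes of the neural programme were counted in lists for comparison. Over all genes tested, 35.2% were called higher and 37.0% lower in SE day 3 cells. These shares were 31.8% and 30.8% in shFOXO4 day 3 cells, and 37.1% and 35.4% in shFOXO4 day 7 cells. In shSP6 cells they were 28.3% and 27.5% at day 3, and 29.0% and 29.6% at day 7. Several list counts below lie near these shares, and no list was tested as a set. Of 10 close relatives of the members, 1 was higher and 2 lower among 4 tested in SE day 3 cells over hESC. In shFOXO4 cells 2 of 3 tested were higher at day 3 and 3 of 4 at day 7. In shSP6 cells 2 were higher and 1 lower among 4 at day 3, and 1 was higher and 1 lower among 4 at day 7. SOX2, which acts in pluripotent and neural stem cells, measured 6657 and 6795 in shFOXO4 day 7 cells, against 87.0 and 183 in scramble cells (change 5.73 ± 0.26, adjusted p = 1.22e-07). SOX2 was also lower in SE day 3 cells than in hESC (change -2.37 ± 0.10), as most members were.

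Of 21 further neural plate regulators, 7 were higher and 2 lower among 10 tested in SE day 3 cells over hESC. In shFOXO4 cells 4 were higher and 4 lower among 10 at day 3 (median -0.02), and 8 were higher and 3 lower among 14 at day 7 (median 1.73). In shSP6 cells 4 were higher and 4 lower among 12 at day 3 (median -0.19), and 3 were higher and 5 lower among 9 at day 7 (median -1.33). HESX1, a forebrain gene that pluripotent cells also express, measured 104 and 106 in shFOXO4 day 7 cells, against 4.00 and 10.5 in scramble cells (change 3.80 ± 0.42), and was called higher in all 4 knockdown comparisons and lower in SE day 3 cells. GBX2, which marks the hindbrain side of the midbrain boundary and is also active in stem cells, measured 1876 and 1989 in shFOXO4 day 7 cells, against 105 and 174 in scramble cells (change 3.83 ± 0.19). IRX3, a neural tube gene that is active in other tissues too, measured 210.2 and 225 in shFOXO4 day 7 cells, against 10596 and 10784 in scramble cells (change -5.61 ± 0.07), and it was lower in all 4 knockdown comparisons. EN1, a gene of the midbrain and hindbrain, measured 5.25 and 9.41 in shFOXO4 day 7 cells, against 97.0 and 155 in scramble cells (change -3.94 ± 0.38). NR2F2, which is active in neural and many other tissues, measured 0.63 and 1.22 in shSP6 day 7 cells, against 713 and 886 in scramble cells. The shSP6 libraries held 2 NR2F2 reads together and the scramble libraries 1422, a ratio of 0.00104 with a counting interval of 0.000126 to 0.00378. In SE day 3 cells NR2F2 measured 147 and 152, against 0 and 1.08 in hESC.

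Markers of neural progenitors and neurons went in both directions. Of 10 progenitor genes tested in each table, 7 were higher and 3 lower in SE day 3 cells over hESC, 1 was higher and 8 lower in shFOXO4 day 3 cells, 1 higher and 7 lower in shFOXO4 day 7 cells, 3 higher and 6 lower in shSP6 day 3 cells, and 2 higher and 6 lower in shSP6 day 7 cells. Their medians in the 4 knockdown comparisons were -0.50, -0.83, -0.59 and -0.95 in that order. HES5, a Notch target of neural progenitors, was at 0 in hESC, in SE day 3 cells and in the day 7 scramble cells of shFOXO4. It was read in shFOXO4 day 7 cells, and in shSP6 cells and their scramble cells on both days. Of 14 neuronal genes, 2 were higher and 4 lower among 7 tested in SE day 3 cells, 1 higher and 2 lower among 4 in shFOXO4 day 3 cells, 5 higher and 1 lower among 8 in shFOXO4 day 7 cells, 1 higher and 2 lower among 6 in shSP6 day 3 cells, and 5 higher and 2 lower among 7 in shSP6 day 7 cells. ELAVL3, an RNA-binding protein of neurons, measured 402 and 429 in shFOXO4 day 7 cells, against 1.91 and 2.0 in scramble cells (change 7.14 ± 0.28, adjusted p = 5.24e-08). DCX, a microtubule protein of young neurons, measured 119.6 and 135 in shFOXO4 day 7 cells, against 11.5 and 48.0 in scramble cells (change 2.37 ± 0.53, adjusted p = 0.00287), and hESC held 167 and 174. ISL1, a neuronal gene that other tissues also use, went the other way, with 169 and 172 in shFOXO4 day 7 cells, against 959.6 and 1221 in scramble cells (change -2.66 ± 0.13). NEUROD4, a proneural gene, was at 0 in all libraries of that table. The proneural genes NEUROG1 and NEUROD1 were at 0 in both of its scramble libraries but were read in at least 1 library of shFOXO4 day 7 cells. Both were likewise read in hESC and were at 0 in SE day 3 cells.

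BMP antagonists favour neural over surface fate. Of 6, 5 were higher in SE day 3 cells than in hESC. In shFOXO4 cells 4 of 5 tested were lower at day 3, and 2 of 6 were higher and 4 lower at day 7. In shSP6 cells 2 were higher and 3 lower on each day. NOG (noggin) measured 17.0 and 25.9 in shFOXO4 day 3 cells, against 72.4 and 97.2 in scramble cells (change -1.95 ± 0.24), and 379.7 and 394 at day 7, against 95.5 and 106 in scramble cells (change 1.93 ± 0.14).

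Most pluripotency genes were higher in every knockdown comparison. Of 18 such genes, 17 were higher in shFOXO4 day 3 cells, 15 in shFOXO4 day 7 cells and 16 in shSP6 day 3 cells, with the others not called, and 14 were higher and 4 lower in shSP6 day 7 cells. Their summed level was 154310 to 167850 in shFOXO4 day 7 cells, against 48577 to 57127 in scramble cells, and 199263 to 206035 in shSP6 day 7 cells, against 104935 to 125137 in scramble cells. At day 3 it was 182272 to 185634 in shFOXO4 cells, against 107996 to 111074 in scramble cells, and 239993 to 251331 in shSP6 cells, against 125155 to 144501 in scramble cells. None of the 18 was at 0 in any group. Surface ectoderm genes were lower in 17 of 18 in shFOXO4 day 3, shFOXO4 day 7 and shSP6 day 3 cells, and in 18 of 18 in shSP6 day 7 cells. The part of remaining pluripotent cells in the higher levels of POU3F1, ZIC2, ZIC5 and the other members was not tested.

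Markers of other fates were mixed beside the members. Neural crest genes were higher in 5 and lower in 2 of 9 tested in shFOXO4 day 7 cells, where SOX10 measured 240.4 and 261 against 20 and 22 in scramble cells. MSX1, a crest and border gene, measured 31.4 and 43.4 in the same cells, against 3633 and 4483 in scramble cells. In the other knockdown comparisons crest genes were higher in 3 and lower in 4 of 7 (shFOXO4 day 3), higher in 2 and lower in 3 of 10 (shSP6 day 3) and higher in 3 and lower in 3 of 9 (shSP6 day 7). Placode genes were lower in 6 of 7 in shFOXO4 day 3 cells, 5 of 7 in shFOXO4 day 7 cells, 6 of 7 in shSP6 day 3 cells and 4 of 7 in shSP6 day 7 cells, with at most 1 higher in each. Mesendoderm genes were lower in 4 of 5, 1 of 4, 4 of 6 and 3 of 6 in the same order of groups, also with at most 1 higher in each. In SE day 3 cells over hESC crest genes were higher in 5 and lower in 5 of 10, placode genes higher in 6 and lower in 1 of 8, and mesendoderm genes higher in 3 of 5. The part of these cell types in the members' levels was not tested.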

How the data were processed

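Paired libraries of 10 groups of H1 cells (20 libraries, RNA-seq with a stranded mRNA kit, per the labels' protocols) were deposited by the authors as 5 tables of normalized counts, a signal of read counts divided by 1 size factor per library within a table. Per the submitters' processing notes the tools were DESeq2 1.20.0, RSEM 1.3.0, STAR 2.6.1 and Trimmomatic 0.39 with build hg19, listed without role or order. The low values are whole multiples of what 1 read is worth, for 100% of values within 0.001 read, which gave the recovered reads per library. Where a column name held no day, day and scramble group were taken from the table it stands in.

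The 9 members and the 10 gene lists were chosen with earlier results of these data known. Symbols were found for 29758 of 31155 identifiers. Within each table limma 3.58.1 (R 4.3.3, with a mean-variance trend) was fitted on log2(value + 1) to all genes with a mean of at least 10, with Benjamini-Hochberg adjustment over all of them and a threshold of 0.05. Differences between effects and sums of changes were contrasts in a model that joins both tables, with a separate mean for each group. An exact permutation test of 2 libraries against 2 cannot go below 0.333 and was not used. Ratios of read sums have exact 95% intervals that cover counting error only. Levels across tables were set side by side with no test, also after scaling all 20 libraries together by median ratios or TMM.

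Named were all members, and from each list and comparison at most 2 called genes with the highest and 2 with the lowest change at a mean of at least 50. The nearest genes were those at the smallest Euclidean distance over the 5 changes. One gene that this rule names is not reported here. HES5, NEUROD4, NEUROG1 and NEUROD1 fall outside that rule and were named after their values were seen. Alternatives were other pseudocounts, filters, scalings, 1 fit over all libraries, a replicate block and leaving out each library. A quasi-likelihood test in edgeR 4.0.16 on recovered reads was added after seeing the data. The fits were tested on simulated data.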

Additional observations from a re-analysis of the deposited data

Results flagged for a closer look

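The change of 10 member effects between day 7 and day 3 passed the test of the difference itself. They were 5 of 7 members for shFOXO4, where 62.7% of all genes differed in either direction, and 5 of 9 for shSP6, where 35.1% did. For shFOXO4 over scramble cells the day 7 change was larger than the day 3 change by 3.17 on the log2 scale for POU3F1, 2.43 for POU3F2, 1.63 for SOX3, 1.56 for ZIC2 and 1.02 for ZIC5. For shSP6 over scramble cells the day 7 change minus the day 3 change was -4.61 for OTX2, -3.86 for SIX3, -1.87 for PAX6, -1.29 for ZIC5 and -0.68 for SOX3. ZIC5 and SOX3 differed between days for both hairpins, with differences of opposite sign. Day 3 and day 7 libraries stand in separately scaled tables, so day and table cannot be told apart. Groups of 2 libraries were too small for a search for single outlying libraries.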

How the results depend on the processing

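Of 1410 member changes recomputed under the alternatives, 1342 kept their direction and their side of the threshold, 36 lost a call, 18 gained one and 14 turned round. Where leaving out a library left a group with 1, that library was assumed to vary like the other groups. Requiring a mean of at least 50 removes low members, and the counts became 0 higher in SE day 3 over hESC, 1 lower in shFOXO4 day 3, 3 higher in shFOXO4 day 7, 3 differing between days for each hairpin, 2 (day 3) and 3 (day 7) differing between hairpins, and 3 in each sum. The count of lower members in shFOXO4 day 3 was 0 in 1 fit over all 20 libraries, 0 with an absolute change of at least 1, 1 with quantile normalization and 0 to 2 when 1 library was left out, and members differing between hairpins at day 3 were 2 in 1 fit over all 20 libraries. Members higher in shSP6 day 7 were 1 to 3 when 1 library was left out. Quantile normalization turned PAX6 to -0.15 in shFOXO4 day 7 and to -0.42 in the difference between days; the cause was not tested. The other reversals were in uncalled members when 1 library was left out. SOX3 ran from -0.12 to 0.043 in SE day 3, OTX2 from -0.048 to 0.24 in shFOXO4 day 3, OTX2 from -1.02 to 0.16 in shFOXO4 day 7, SOX3 from -0.016 to 0.39 in shSP6 day 3, POU3F2 from -0.60 to 0.18 and ZIC5 from -0.38 to 0.32 in shSP6 day 7 (POU3F2 0.03 and ZIC5 0.08 without shSP6 replicate 1). Between days OTX2 ran from -1.12 to 0.060 for shFOXO4 and POU3F1 from -0.27 to 0.82 for shSP6. Between hairpins at day 3 ZIC5 ran from -0.41 to 0.14, and the shSP6 sum of SOX3 from -0.056 to 0.35. Same-numbered libraries did not deviate together (correlations -0.05 to 0.06), and a replicate block changed the call of 1 member, ZIC2 between hairpins at day 3 (0.38, adjusted p = 0.0377).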
